A study of Mus musculus with 90 samples.

Results

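The genes described here are 35 genes of monocytes and macrophages, the phagocytes that enter or live in tissues. They were chosen by symbol, and 35 of 35 were found among the 55011 gene symbols of the mouse count table. By known role, 12 are general genes of the lineage, 6 mark recruited monocytes or inflammatory cells, 6 serve repair, lipid handling and clearance, 3 encode the chains of complement C1q, and 8 mark resident macrophages. The recruited and inflammatory set includes Arg1 and Chil3, which wound or alternatively activated macrophages also make. Monocytes leave the blood after muscle injury, clear dead fibres as macrophages, and then shift from an inflammatory to a repair program. Resident macrophages are settled in each organ before injury, and the Kupffer cells of the liver are the best-known case. RNA of whole tissue cannot tell fewer cells apart from less RNA per cell.

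The study measured polyA RNA in 90 mouse libraries of 29 groups, as read counts per gene, to ask how the mechanically gated channel Piezo1 in stromal cells bears on muscle inflammation. Whole tibialis anterior (TA) muscle was taken 1, 3 and 7 days after cardiotoxin, a muscle-killing snake toxin, from Pdgfra-Cre Piezo1 +/+ mice (WT; 4, 3 and 3 libraries) and from Pdgfra-Cre Piezo1 f/f mice (mutant; 4, 3 and 3 libraries). The same genotypes gave uninjured quadriceps (3 and 3 libraries), uninjured perfused liver (4 and 4), uninjured perfused heart (3 and 3) and perfused heart 3 days after cardiotoxin in skeletal muscle (3 and 3). Another 44 libraries held 1000 sorted muscle mesenchymal stromal cells each, gated as PDGFRa+ Sca1+ CD31- CD45-. These came from sedentary mice and mice 1 day after acute exercise (AEX) or after exercise training (EXT), with no genotype entry, from the Cre mice of both genotypes (sedentary, 1 day after AEX, 1 day after cardiotoxin), and from brief cultures with 25 uM of the Piezo1 agonist Yoda1 or vehicle. The 2 h cultures and their vehicle came from Cre Piezo1 WT mice, and the 4 h and 6 h cultures carry no genotype entry. The controls of these later cultures are titled Unstim, with vehicle as their treatment entry, and are called vehicle below. All animals of the cross carry the Cre, controls included, and it is driven by Pdgfra, a gene of stromal cells in many tissues and not of macrophages. The labels do not state sex, the age of the cross, or whether libraries of a group came from separate animals, so p-values measure the spread between these libraries.

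Library totals were 4051973 to 10226407 counts in TA, 6632892 to 7883104 in quadriceps, 27925309 to 37148962 in heart, 27461930 to 38376123 in liver and 1806248 to 10258234 in sorted cells. Levels are CPM, read counts relative to the library total after TMM scaling within each experiment. Piezo1 did not show the genotype: TA at day 1 held 39.0 to 53.8 CPM in WT and 30.9 to 46.5 CPM in mutant libraries, and sedentary sorted cells held 38.7 to 47.6 CPM in WT and 47.3 to 78.1 CPM in mutant libraries. These counts cover the whole gene and the labels do not say which exons are floxed, so they do not show the deletion, and "mutant" below means the library labelled so. The sorted cells carried the genes of their gate, with a median of 544 CPM for Pdgfra and 1100 CPM for Ly6a (Sca1).

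In injured TA the 35 genes summed to 5031 to 7974 CPM at day 1, 16521 to 21233 CPM at day 3 and 1794 to 2979 CPM at day 7 in WT. In mutant TA the sums were 4735 to 6600 CPM, 20771 to 29854 CPM and 2018 to 2971 CPM. Day 3 was thus the high point in both genotypes, with no overlap between days. Uninjured quadriceps, a different muscle scaled apart, summed to 253 to 335 CPM, heart to 769 to 1290 CPM and liver to 2052 to 2422 CPM, of which 1036 to 1600 CPM was Arg1. By group means, 24 genes were highest at day 3 and 11 at day 1 in WT TA, against 27 at day 3, 6 at day 1 and 2 at day 7 in mutant TA. Clec4f was at 0 CPM in mutant TA on every day and was counted under day 1 by default. The day 7 genes were Timd4 and Vsig4, with means of only 0.901 and 0.748 CPM there. Per kilobase of exon, Lyz2 (lysozyme of macrophages) had the highest level among the 35 in WT TA at day 3, 3801 CPM per kb, followed by Spp1 at 3019 and Ctss at 1341 CPM per kb. In mutant TA at day 3 Spp1 led at 6005 CPM per kb over Lyz2 at 4220.

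**Figure D1:**
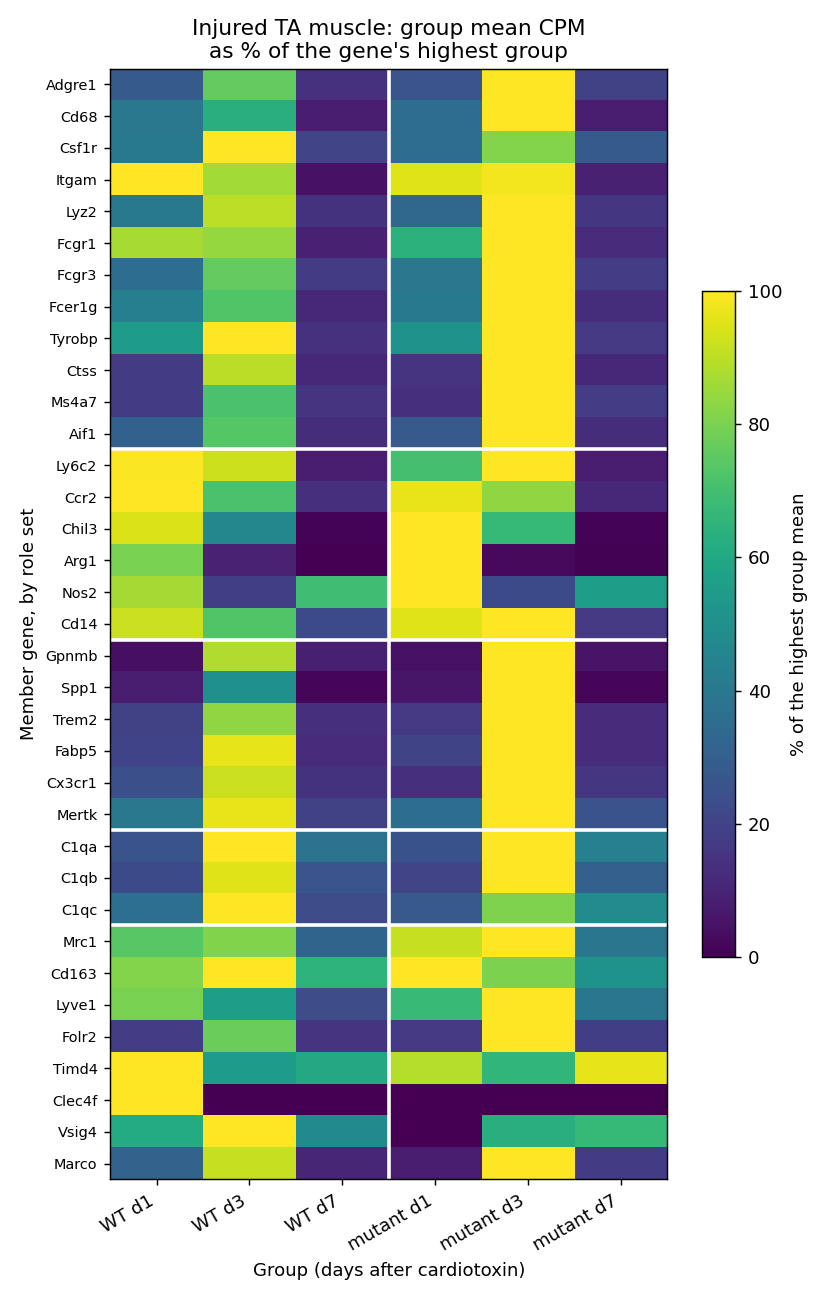
Group mean CPM of each of the 35 genes in injured TA, by day and genotype, as a percentage of that gene's highest group (colour); white lines part the 5 role sets and the genotypes. Most general, repair and C1q genes are brightest at day 3, recruited and inflammatory genes are bright at day 1, and the bottom rows (Timd4, Clec4f, Vsig4, Marco) rest on under 2 CPM in every library.

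Because many of these genes moved together, their promoters are shown beside the values. RefSeq promoter entries (build GRCm38.p6) were matched for 26 of the 35 genes. The core of the binding motif of PU.1, the master transcription factor of the lineage, was searched as GAGGAA on both strands in the 250 bases before the start, as a description of letters and not of binding. It stood in 14 of the 26 genes (53.8%) and in 6986 of 27025 genes with an entry (25.9%). The 120 bases before the start of 5 genes follow, with the motif in capitals. C1qb, Trem2 and Fcgr1 hold it within this stretch, C1qc holds it only farther up, and Gpnmb, the gene with the largest rise in WT, has no match in the 250 bases.
C1qb promoter, chr4:136886201-136886320, minus strand: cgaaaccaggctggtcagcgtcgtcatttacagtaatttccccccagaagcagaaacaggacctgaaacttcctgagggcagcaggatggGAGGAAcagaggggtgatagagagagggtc
C1qc promoter, chr4:136892915-136893034, minus strand: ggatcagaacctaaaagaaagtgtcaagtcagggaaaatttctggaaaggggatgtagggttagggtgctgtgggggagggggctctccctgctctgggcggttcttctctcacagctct
Trem2 promoter, chr17:48346281-48346400, plus strand: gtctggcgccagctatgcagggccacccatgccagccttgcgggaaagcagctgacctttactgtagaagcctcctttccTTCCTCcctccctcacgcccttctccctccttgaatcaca
Fcgr1 promoter, chr3:96293970-96294089, minus strand: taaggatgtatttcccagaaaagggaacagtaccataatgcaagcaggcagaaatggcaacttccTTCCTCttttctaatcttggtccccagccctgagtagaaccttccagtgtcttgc
Gpnmb promoter, chr6:49036398-49036517, plus strand: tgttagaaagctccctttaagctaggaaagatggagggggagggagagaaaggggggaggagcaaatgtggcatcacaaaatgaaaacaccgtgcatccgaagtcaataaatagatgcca

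From day 1 to day 3 in WT TA, 20 of 32 tested genes rose and 3 fell in edgeR's quasi-likelihood test at an adjusted p under 0.05. Over all 15499 genes tested, 14.1% rose and 12.6% fell. In mutant TA 22 rose and 2 fell, where 22.0% of all genes rose and 22.6% fell. The median log2 change of the tested members was 1.12 in WT and 1.47 in mutant TA, against 0.01 and 0.00 over all genes tested. Timd4, Clec4f and Marco were too low to be tested in TA, at 1.71 CPM or less in every library. All TA comparisons come from a single fit and share libraries, so their counts are not independent of each other. Scaling by library totals alone gave 20 higher and 2 lower in WT and 25 higher and 2 lower in mutant TA, with the median of all genes then at 0.21 and 0.43.

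All 6 repair, lipid handling and clearance genes rose from day 1 to day 3 in both genotypes. Gpnmb, a glycoprotein of lysosome-rich phagocytes, was 49.9 to 92.5 CPM in the 4 WT libraries of day 1 and 1341, 1660 and 1663 CPM in the 3 of day 3. In mutant TA it went from 50.3 to 88.1 CPM to 2050, 1491 and 1754 CPM. These day 3 values stood above all day 1 values by over an order of magnitude, with log2 changes of 4.37 ± 0.24 (SE; edgeR adjusted p = 6.0e-12) in WT and 4.54 ± 0.24 (adjusted p = 2.7e-12) in mutant TA.

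Spp1 encodes osteopontin, a secreted matrix and cytokine-like protein. Its WT libraries held 739, 1329, 579 and 563 CPM at day 1 and 3483, 5836 and 5606 CPM at day 3. Its mutant libraries held 582, 586, 443 and 852 CPM at day 1 and 9919, 13992 and 5777 CPM at day 3. The groups of the days did not overlap in either genotype, and Spp1 rose by 2.63 ± 0.34 log2 (edgeR adjusted p = 3.9e-06) in WT and by 4.01 ± 0.35 log2 (adjusted p = 7.2e-09) in mutant TA.

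Trem2, a lipid-sensing receptor of phagocytes, was 22.9 to 48.7 CPM in WT at day 1 and 146, 187 and 152 CPM at day 3, a log2 change of 2.07 ± 0.22 (edgeR adjusted p = 3.3e-07). The mutant libraries went from 24.9 to 38.4 CPM to 174, 201 and 207 CPM. Trem2 rose there by 2.61 ± 0.23 log2 (edgeR adjusted p = 5.0e-09). Fabp5, a fatty acid binding protein whose counts may be shared with processed pseudogenes, was 28.5 to 42.1 CPM and then 199, 139 and 146 CPM in WT and rose by 2.27 log2 in WT and 2.28 log2 in mutant TA. Mertk, a receptor for dying cells, rose by 1.28 and 1.46 log2. Cx3cr1, the fractalkine receptor, was 43.7, 31.0, 31.5 and 19.4 CPM at day 1 in WT and 27.1, 16.5, 10.8 and 17.6 CPM in mutant TA, and 94 to 140 and 95.5 to 151 CPM at day 3. Its rise was 1.92 ± 0.27 log2 (edgeR adjusted p = 1.3e-05) in WT and 2.84 ± 0.28 log2 (adjusted p = 4.1e-08) in mutant TA, with no overlap between the days.

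The C1q chains, which form the recognition unit of the classical complement pathway and are made largely by macrophages, also rose in both genotypes. C1qa was 83.4, 92.0, 81.8 and 60.0 CPM at day 1 and 355, 321 and 234 CPM at day 3 in WT, and 94.2, 73.6, 71.5 and 68.3 CPM and then 248, 322 and 340 CPM in mutant TA. Every day 3 library was above every day 1 library. The log2 change of C1qa was 1.94 ± 0.21 (edgeR adjusted p = 2.9e-07) in WT and 1.98 ± 0.21 (adjusted p = 7.0e-08) in mutant TA, and that of C1qb was 2.07 and 2.25. C1qc was less even: WT day 3 libraries held 74.0, 275 and 248 CPM, so that replicate 1 lay within the day 1 range of 59.6 to 81.5 CPM. Its log2 change was 1.46 ± 0.37 (edgeR adjusted p = 0.0066).

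Of the 12 general genes, 10 rose in WT and 11 in mutant TA. Ctss, a lysosomal cysteine protease, had the largest change of the set in WT, from 377, 481, 331 and 259 CPM to 1659, 2182 and 1622 CPM in WT and from 269 to 375 CPM to 1546, 2605 and 1934 CPM in mutant TA. The log2 changes were 2.33 ± 0.22 (edgeR adjusted p = 3.1e-08) and 2.69 ± 0.22 (adjusted p = 1.4e-09). Ms4a7, a membrane protein of tissue macrophages, rose by 2.03 and 2.85 log2, and Adgre1, which encodes F4/80, by 1.43 and 1.93. Csf1r, the receptor for the growth factor that keeps macrophages alive, rose by 1.31 and 1.19 log2. The other risers, Cd68, Lyz2, Aif1, the IgG receptor Fcgr3 and the signalling adaptors Fcer1g and Tyrobp, changed by 0.65 (Cd68) to 1.23 (Aif1) log2 in WT and by 0.96 (Tyrobp) to 1.85 (Aif1) in mutant TA. Itgam, the CD11b integrin chain that neutrophils carry too, was 43.6 to 45.2 CPM at day 1 and 35.4 to 43.3 CPM at day 3 in WT, and its change did not pass the test in either genotype. Fcgr1, the high-affinity IgG receptor, passed in mutant TA alone (0.64 ± 0.19, edgeR adjusted p = 0.0090, against -0.04 ± 0.19, adjusted p = 0.90, in WT), and the genotype by day term for Fcgr1 had an adjusted p of 0.13.

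None of the 6 recruited and inflammatory genes rose from day 1 to day 3, 3 fell in WT and 2 in mutant TA. Those that fell were Arg1, Nos2 and Chil3 in WT and Arg1 and Nos2 in mutant TA. The monocyte genes Ccr2 and Ly6c2, and Cd14, did not pass in either genotype. Arg1, the arginase that some wound macrophages make, was 118, 245, 171 and 180 CPM at day 1 in WT and 180 to 251 CPM in mutant TA. At day 3 it was 46.0, 9.22 and 10.7 CPM in WT and 6.54, 5.62 and 4.75 CPM in mutant TA. It fell by 3.03 ± 0.43 log2 (edgeR adjusted p = 3.7e-05) and by 5.32 ± 0.50 log2 (adjusted p = 1.1e-07), and no day 3 library reached the day 1 range.

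Nos2, the inducible nitric oxide synthase, had the opposite ends high. It was 9.51, 8.25, 12.4 and 15.9 CPM at day 1, 3.36, 2.02 and 1.98 CPM at day 3 and 10.9, 9.81 and 7.05 CPM at day 7 in WT. The mutant libraries held 10.7 to 15.4 CPM, then 4.30, 2.08 and 2.62 CPM, then 9.22, 7.37 and 5.72 CPM. It fell by 2.23 ± 0.32 log2 (edgeR adjusted p = 9.8e-06) and by 2.20 ± 0.31 log2 (adjusted p = 3.9e-06) from day 1 to day 3. Chil3, a chitinase-like protein of alternatively activated cells whose reads may be shared with Chil4, was 95.8 to 138 CPM at day 1 and 73.8, 74.5 and 31.8 CPM at day 3 in WT, a fall by 1.03 ± 0.31 log2 (edgeR adjusted p = 0.017). In mutant TA its change of -0.58 ± 0.30 (edgeR adjusted p = 0.13) did not pass. Ccr2, the receptor that calls monocytes out of the marrow, had 204 to 302 CPM at day 1 and 157 to 191 CPM at day 3 in WT, and changes of -0.49 ± 0.24 and -0.21 ± 0.23 log2 that did not pass. Ly6c2, a monocyte surface protein that shares reads with Ly6c1, and Cd14, the endotoxin co-receptor, also did not pass from day 1 to day 3.

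Of the 8 resident genes, 5 were tested, 1 rose in WT and 2 in mutant TA. Folr2, a folate receptor of resident macrophages, went from 4.60 to 7.19 CPM to 28.1, 31.1 and 16.0 CPM in WT, a change of 2.08 ± 0.23 log2 (edgeR adjusted p = 4.0e-07), and from 3.61 to 6.74 CPM to 29.8, 34.4 and 33.5 CPM in mutant TA. Mrc1, the mannose receptor, stayed at 141 to 153 CPM at day 1 and 136 to 204 CPM at day 3 in WT, a change of 0.13 ± 0.19 log2. Cd163, the haemoglobin scavenger receptor, and Lyve1, which lymphatic endothelium carries too, did not pass either. Vsig4, a complement receptor, was at 0 in all 4 mutant libraries of day 1 and at 0.689, 0.154 and 1.26 CPM at day 3, from 19 counts in all. Against a floor of 3 counts over the day 1 group this was 5.85-fold higher. That value leaves out the counting error and spread of the day 3 libraries. The 4 WT libraries of day 1 held 0.354 to 1.36 CPM of Vsig4, and the genotypes were not called apart (edgeR adjusted p = 0.35).

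**Figure D2:**
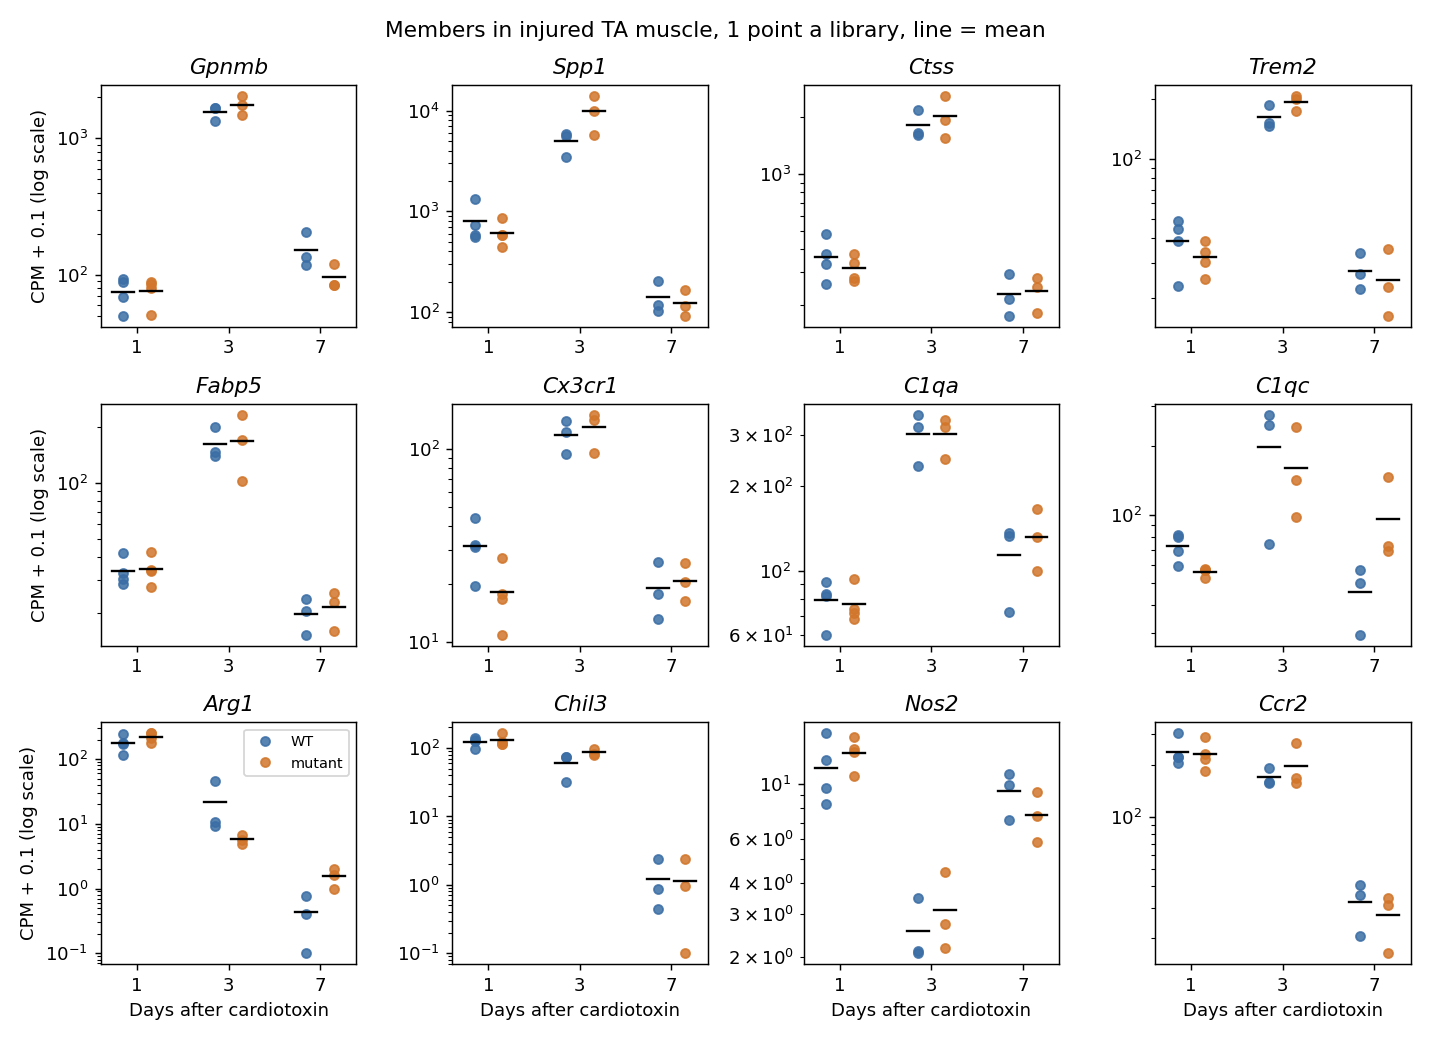
CPM + 0.1 (log axis) of 12 of the genes in each of the 20 TA libraries, by days after cardiotoxin, with WT in blue and mutant in orange and a line at each group mean. Repair and C1q genes peak at day 3, Arg1 and Chil3 fall over the days, Nos2 dips at day 3, and the Arg1 panel shows WT replicate 1 at 46.0 CPM above the other day 3 libraries.

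From day 3 to day 7, 30 of 32 tested genes fell and 1, Nos2, rose in WT TA, where 22.4% of all genes fell and 20.1% rose. In mutant TA 29 fell and Nos2 again rose, where 27.0% of all genes fell and 25.8% rose. The median member change was -2.45 log2 in WT and -2.59 log2 in mutant TA. Spp1 came down to 103, 117 and 202 CPM in WT and 114, 91.8 and 167 CPM in mutant TA, below its day 1 levels, with falls by 5.15 ± 0.42 log2 (edgeR adjusted p = 5.2e-09) and by 6.31 ± 0.45 log2 (adjusted p = 2.0e-10). Chil3 dropped to 0.340, 2.30 and 0.766 CPM and to 2.26, 0.856 and 0 CPM. Arg1 ended at 0.679, 0 and 0.306 CPM in WT and at 1.91, 1.54 and 0.880 CPM in mutant TA, a few counts per library.

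Gpnmb returned to 134, 117 and 207 CPM in WT and 84.4, 83.4 and 120 CPM in mutant TA, falls by 3.35 ± 0.26 log2 (edgeR adjusted p = 1.7e-09) and by 4.20 ± 0.27 log2 (adjusted p = 4.3e-11). Ctss returned to 176, 217 and 294 CPM and to 252, 183 and 278 CPM, below its day 1 range in WT apart from replicate 3. Itgam was 1.53, 1.99 and 2.91 CPM in WT and 6.61, 1.88 and 3.67 CPM in mutant TA at day 7, with falls by 4.13 and 3.42 log2. The monocyte genes Ly6c2 and Ccr2, which had not passed between the first days, fell here: Ly6c2 from 26.5 to 36.5 CPM to 2.15 to 4.29 CPM in WT, and Ccr2 to 20.5, 40.3 and 35.2 CPM. Cd68 went from 531, 565 and 385 CPM to 50.6, 60.7 and 71.6 CPM in WT. All these day 7 values lay below every day 3 value of the same genotype.

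The smallest called fall to day 7 was that of Cd163 in both genotypes. It was 29.1, 27.1 and 37.4 CPM at day 3 and 25.6, 15.5 and 19.8 CPM at day 7 in WT, a fall by 0.62 ± 0.23 log2 (edgeR adjusted p = 0.031), and fell by 0.65 log2 in mutant TA. Mrc1 fell by 1.33 and 1.35 log2. C1qa also fell, by 1.41 log2 in WT, to 72.0, 133 and 136 CPM and to 166, 100 and 132 CPM, levels that still overlapped or exceeded day 1. C1qc fell in WT by 2.13 ± 0.42 log2 (edgeR adjusted p = 0.00041), while in mutant TA its change of -0.75 ± 0.40 (edgeR adjusted p = 0.12) did not pass. Nos2 rose by 1.91 ± 0.33 log2 (edgeR adjusted p = 5.6e-05) in WT and by 1.36 ± 0.33 log2 (adjusted p = 0.0014) in mutant TA. With library totals in place of TMM, the median of all genes moved to -0.72 and -0.82 and the mutant rise of Nos2 became 0.53 (edgeR adjusted p = 0.17).

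Other cells moved over the same days, and their part in these values was not tested. Ptprc, the CD45 gene of all leukocytes, was 106 to 125, 195 to 253 and 30.2 to 48.9 CPM at days 1, 3 and 7 in WT and 83.2 to 155, 212 to 314 and 37.7 to 56.3 CPM in mutant TA. Its mean rose 1.92-fold and 2.33-fold from day 1 to day 3, and 18 of 33 members in WT and 19 of 33 in mutant TA rose by more. The 11 neutrophil markers summed to 173 to 293 CPM at day 1, 43.5 to 78.7 at day 3 and 6.28 to 11.8 at day 7 in WT, and to 178 to 421, 44.1 to 60.3 and 1.54 to 9.05 CPM in mutant TA, with Elane at 0 in WT at day 1 and Elane and Ngp at 0 in mutant TA. The 6 muscle fibre markers were lowest at day 3, at 34942 to 58028 CPM in WT and 4429 to 15919 CPM in mutant TA.

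Between genotypes in TA, 1 gene differed at 1 day. At day 3 Arg1 was called lower in mutant TA, by 1.97 ± 0.48 log2 (edgeR adjusted p = 0.016), from the values of 46.0, 9.22 and 10.7 CPM in WT and 6.54, 5.62 and 4.75 CPM given above. All mutant libraries were below all WT libraries, but without WT replicate 1 the change was -0.84 with an edgeR adjusted p of 0.073. The call was also lost without mutant replicate 2 (edgeR adjusted p = 0.091), with no filter on low counts (0.058) and with the 2 groups fitted alone (0.11). Over all genes 8.98% were called at that day. DESeq2 also called Arg1, and Cd68 as higher. Cd68, a lysosomal glycoprotein, was 531, 565 and 385 CPM in WT and 665, 1011 and 675 CPM in mutant TA, with no overlap (0.67 ± 0.22 log2, edgeR adjusted p = 0.056). Spp1 at the same day was higher by 0.99 ± 0.36 log2 (edgeR adjusted p = 0.085), with mutant replicate 3 at 5777 CPM inside the WT range. Muscle fibre markers stood lower in mutant TA at that day, as given above.

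At day 1 edgeR called 0 of 32 members between genotypes, with 4 at an unadjusted p under 0.05 and 0 called by DESeq2, where 0.0774% of all genes were called. At day 7 it called 0, with 3 at an unadjusted p under 0.05 and 0 by DESeq2, where 0% of all genes were called. The median standard error of a member was 0.22 log2 at day 1 and 0.27 at day 7. Cx3cr1 at day 1 was lower in mutant TA by 0.80 ± 0.26 log2 (edgeR adjusted p = 0.63), and C1qc at day 7 higher by 1.07 ± 0.41 (adjusted p = 1.0), without passing. A joint test of genotype by day called 1 of 32 members, where 3.89% of all genes were called. That was Arg1, whose mutant minus WT difference was 2.29 log2 lower at day 3 than at day 1 (edgeR adjusted p = 0.044), a call kept only without WT day 3 replicate 1, 2 or 3, WT day 1 replicate 2 or WT day 7 replicate 1 among the fits that left out 1 of the 20 libraries. Without WT day 3 replicate 1 the difference was -1.16, and the call was also lost with a replicate block (edgeR adjusted p = 0.072) and with no low-count filter (0.12).

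Genes of the same pathways outside the 35 were read from lists of related genes. Over all genes tested, 14.1% rose and 12.6% fell from day 1 to day 3 in WT. In mutant TA 22.0% rose and 22.6% fell. From day 1 to day 3, 9 of 10 lysosome genes rose in each genotype, among them Grn, progranulin (1.51 ± 0.21 log2, edgeR adjusted p = 6.2e-06 in WT). Of 12 genes of dead cell clearance and lipid efflux, 5 rose and 1 fell in WT and 9 rose and 1 fell in mutant TA. The exporters Abca1 and Abcg1 rose by 2.04 and 2.79 log2 in WT, and Apoe, their lipid acceptor, by 2.92. Of 11 tested monocyte growth factors, chemokines and receptors, 5 fell in WT, and 6 fell and 1 rose in mutant TA. Ccl2 and Ccl7, ligands of Ccr2, fell by 3.56 and 3.88 log2 in WT and by 1.76 and 1.75 in mutant TA. At day 3 the list had 3 genes higher in mutant TA, Ccl2 (1.70 ± 0.40, edgeR adjusted p = 0.013), Ccl7 (1.95) and Ccl12 (1.63). Between genotypes at day 3, 8.98% of all genes were called in either direction. Ccl2 was 38.3 to 54.7 CPM in WT and 78.6 to 218 CPM in mutant libraries.

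Among 9 tested inflammatory cytokines and enzymes, 1 rose and 4 fell from day 1 to day 3 in WT, and 1 rose and 4 fell in mutant TA. Il1b fell by 1.68 log2 in WT and 2.83 in mutant TA, and Il18 rose by 0.76 and 1.59. Among macrophage transcription factors 3 of 11 rose and 2 fell in WT, and 5 rose and 1 fell in mutant TA. For these lists too, 14.1% of all genes rose and 12.6% fell in WT, and 22.0% and 22.6% in mutant TA. Spic, a factor of iron-recycling macrophages, rose by 3.12 log2 and Irf8, a monocyte factor, by 1.21 in WT. Igf1, a growth factor for fibres, rose by 1.60 log2 in WT, and 1 of 8 repair cytokines rose and 1 fell. All 12 genes of ITAM and Fc receptor signalling, the pathway that Tyrobp and Fcer1g feed, fell from day 3 to day 7 in both genotypes. Over those days 22.4% of all genes fell in WT and 27.0% in mutant TA.

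In uninjured quadriceps 23 of the 35 genes were high enough to test, and edgeR called 0 between genotypes, with 4 at an unadjusted p under 0.05 and 0 by DESeq2, where 0% of all genes were called. The tested changes lay between -0.65 and 0.73 log2. Lyz2 had the highest level per kilobase in WT, 61.4 CPM per kb, followed by C1qb at 23.3. Csf1r was 42.0, 32.2 and 46.6 CPM in WT and 34.7, 34.6 and 34.6 CPM in mutant libraries. Mrc1 was 27.0, 19.0 and 25.1 CPM in WT and 22.1, 27.9 and 26.2 CPM in mutant libraries. Marco was at 0 in all 6 libraries, while Clec4f was at 0 in 5 and Ly6c2 at 0 in 2 of them.

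In heart, edgeR called 0 of 34 members between genotypes before injury, with 3 at an unadjusted p under 0.05 and 0 by DESeq2, where 0% of all genes were called. In hearts taken 3 days after muscle injury it again called 0 of 34, where 3.92% of all genes were called. There 15 members had an unadjusted p under 0.05, 12 of them higher in mutant hearts, and DESeq2 called 8. These 8 were Adgre1, Lyz2, Fcer1g, Ctss, Cd14, C1qa and C1qb as higher and C1qc as lower. The 3.92% is edgeR's share at the adjusted threshold. Shares of all genes for DESeq2 and for the unadjusted p are not given here, so the 15 and the 8 have no background beside them. Ctss was 24.9, 26.9 and 36.2 CPM in WT and 36.1, 36.0 and 73.3 CPM in mutant hearts (0.72 ± 0.23 log2, edgeR adjusted p = 0.086). Lyz2 was 214, 190 and 248 CPM in WT and 306, 236 and 361 CPM in mutant hearts (0.47 ± 0.14, edgeR adjusted p = 0.069). Both pairs of groups overlapped, and mutant replicate 3 was the highest library for both genes.

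Mutant replicate 3 at day 3 also had the most Ptprc, 20.5 CPM against 5.17 and 9.71 CPM in the other mutant and 8.48 to 14.2 CPM in the WT hearts of that day, and its part in these values was not tested. Leaving out 1 library at a time gave 0 to 6 called members, with 6 without mutant replicate 1 and 5 without replicate 2. Neutrophil markers summed to 2.81 to 6.77 CPM in these mutant and 5.06 to 8.34 CPM in the WT hearts, with Ly6g at 0 in both.

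The C1q chains of the heart differed in direction between genotypes, without passing the test. C1qb was 66.2, 83.7 and 91.9 CPM in WT and 119, 84.3 and 178 CPM in mutant hearts at day 3 (0.66 ± 0.20 log2, edgeR adjusted p = 0.068). C1qa differed by 0.62 ± 0.18 log2 (edgeR adjusted p = 0.060) in the same direction. C1qc was 41.4, 45.8 and 43.3 CPM in WT and 34.98, 18.5 and 21.3 CPM in mutant hearts, all mutant libraries below all WT libraries (-0.80 ± 0.23, edgeR adjusted p = 0.065). C1qc was also the member called in mutant hearts from day 0 to day 3, where 4.75% of all genes were called and 1 of 34 members was. The mutant hearts of day 0 held 67.8, 48.6 and 34.1 CPM, so the lowest of them lay just below the highest of day 3. It fell by 1.01 ± 0.24 log2 (edgeR adjusted p = 0.028). The call was lost without mutant day 0 replicate 2 (edgeR adjusted p = 0.14) or 3 (0.080), without mutant day 3 replicate 2 (0.065) or 3 (0.092), and with those 2 groups fitted alone (0.17).

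Over the 12 heart libraries the ratio of C1qc to C1qb CPM ran from 0.12 to 0.76, while that of C1qa to C1qb ran from 0.61 to 0.84. The same pair of ranges was 0.098 to 0.65 and 0.57 to 0.73 in 8 liver libraries, 0.094 to 0.55 and 0.37 to 0.62 in 20 TA libraries, and 0.14 to 0.45 and 0.62 to 0.97 in 6 quadriceps libraries. The 3 genes are neighbours on chromosome 4, with C1qc between the others, 3616 bases from C1qb and 2851 bases from C1qa in the annotation of build GRCm38.p6.

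**Figure D3:**
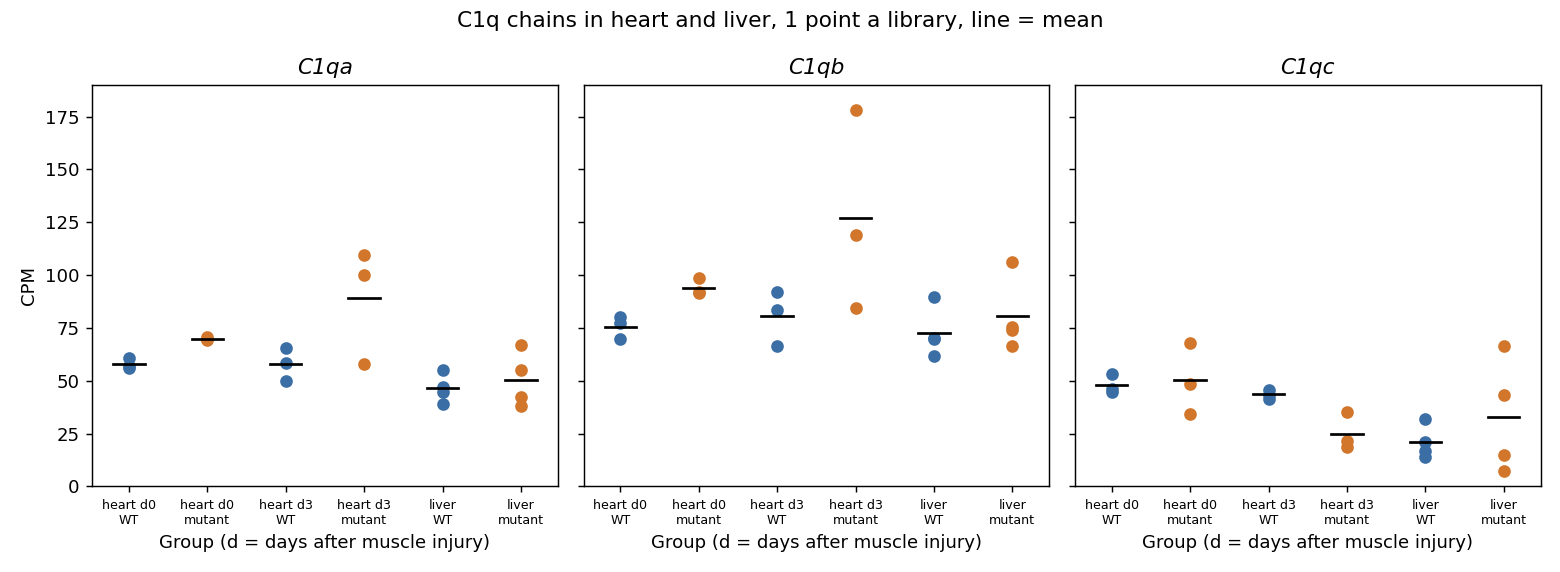
CPM of C1qa, C1qb and C1qc in each heart and liver library, by genotype (WT blue, mutant orange) and day, with a line at each group mean; the organs were scaled apart, so levels compare within an organ. In mutant hearts of day 3 C1qb reaches 178 CPM while C1qc lies at 18.5 to 34.98 CPM, and C1qc spans 7.26 to 66.4 CPM over mutant livers.

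In WT hearts edgeR called 0 of 34 members from day 0 to day 3, with 3 at an unadjusted p under 0.05, where 0.103% of all genes were called. DESeq2 called 1, Vsig4. Vsig4 was 4.02, 3.23 and 4.34 CPM at day 0 and 0.837, 0.912 and 0.759 CPM at day 3, with no overlap (-2.20 ± 0.41 log2, edgeR adjusted p = 0.069). In mutant hearts Vsig4 was 4.15, 3.42 and 2.77 CPM and then 1.06, 1.48 and 3.13 CPM (-0.87 ± 0.39, edgeR adjusted p = 0.21), and the difference between the genotypes' changes was not tested. Of the recruited and inflammatory set over the 12 hearts, Ly6c2 was 1.34 CPM or less, Chil3 0.477 CPM or less, Arg1 0.980 to 2.72 CPM, Ccr2 0.587 to 6.74 CPM, Cd14 5.17 to 14.5 CPM and Nos2 2.68 to 18.9 CPM.

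In liver edgeR called 0 of 33 members between genotypes, with 1 at an unadjusted p under 0.05 and 0 by DESeq2, where 0% of all genes were called. Clec4f, a lectin of Kupffer cells, was 146, 177, 131 and 144 CPM in WT and 146, 176, 241 and 147 CPM in mutant livers (0.25 ± 0.16 log2, edgeR adjusted p = 1.0). Lyve1 had the unadjusted p, with 4.67, 5.62, 7.14 and 3.73 CPM in WT and 8.97, 12.2, 9.80 and 5.37 CPM in mutant livers (0.78 ± 0.29, edgeR adjusted p = 1.0). Mutant replicate 3 was the highest mutant library for Clec4f, Marco, Cd163 and C1qc.

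Uninjured WT heart and liver, scaled together, differed in 21 of 35 members, 5 higher in heart, where 32.9% of all genes were, and 16 lower, where 23.8% were. Scaling by library totals alone turned this split to 11 higher and 7 lower, with the median of all genes at 0.92 against 0.28 log2. Under that scaling Csf1r, C1qb, Mrc1 and Cd163, called lower in heart above, changed sign, and Adgre1, Cd68, Tyrobp, Aif1 and Mertk were no longer called. Directions below are those that held under both.

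The genes lower in heart by the most were Arg1, Spp1 and those of Kupffer cells. Clec4f was 0.640, 0.776 and 0.701 CPM in heart and 195, 235, 168 and 184 CPM in liver, a difference of -8.10 ± 0.45 log2 in heart (edgeR adjusted p = 1.2e-12). Vsig4 was 3.34, 2.73 and 3.67 CPM in heart and 61.9, 69.0, 52.0 and 58.4 CPM in liver (-4.21 ± 0.29, edgeR adjusted p = 4.2e-11). Timd4, a receptor for dying cells on long-lived resident macrophages, was 2.08 to 2.68 CPM in heart and 10.1 to 18.5 CPM in liver (-2.42 ± 0.35, edgeR adjusted p = 4.0e-06). Marco, a scavenger receptor, was 0.0582, 0.600 and 0.117 CPM in heart and 10.4, 24.3, 19.9 and 41.2 CPM in liver (-6.49 ± 0.75, edgeR adjusted p = 1.8e-07). Arg1 was 2.15, 1.18 and 1.61 CPM in heart and 1900, 1931, 1661 and 1596 CPM in liver, where hepatocytes use the enzyme in the urea cycle (-10.08 ± 0.29, edgeR adjusted p = 1.9e-17). Spp1 was 1.16, 0.801 and 0.818 CPM in heart and 44.1 to 87.7 CPM in liver (-6.16 ± 0.42, edgeR adjusted p = 3.9e-11). Ctss was 19.1 to 22.4 CPM in heart and 41.5 to 78.7 CPM in liver (-1.43 ± 0.25, edgeR adjusted p = 4.6e-05). None of these 7 genes overlapped between the organs. They were named because they were called, and the share of all genes without overlap is not given here.

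Fewer genes were called higher than lower in heart with TMM scaling, but not by library totals. Cx3cr1 was 18.0, 12.4 and 12.8 CPM in heart and 1.81, 0.153, 4.10 and 1.58 CPM in liver (2.91 ± 0.50 log2, edgeR adjusted p = 3.8e-05). Lyve1 was 16.3, 25.7 and 17.1 CPM against 4.78 to 9.12 CPM (1.51 ± 0.25, edgeR adjusted p = 2.3e-05), although liver sinusoids carry it too. Lyz2 was 165, 192 and 181 CPM against 84.6 to 123 CPM (0.83 ± 0.16, edgeR adjusted p = 0.00016), and Ms4a7 was 2.80 to 5.79 CPM against 0.735 to 1.54 CPM (2.00 ± 0.52, edgeR adjusted p = 0.0025). Nos2 was 15.7, 13.3 and 11.1 CPM in heart, and its 4 liver libraries held 3 counts in all, a ratio of 434 with an exact 95% counting interval of 148 to 2106 that covers counting error only. Cx3cr1, Lyve1, Lyz2, Ms4a7 and Nos2, also named as called genes, did not overlap between the organs. The haemoglobin genes Hba-a1, Hba-a2, Hbb-bs and Hbb-bt were also higher in heart, by 2.99 to 3.47 log2, while Alas2 was lower by 2.48. The part of residual blood in these values was not tested.

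**Figure D4:**
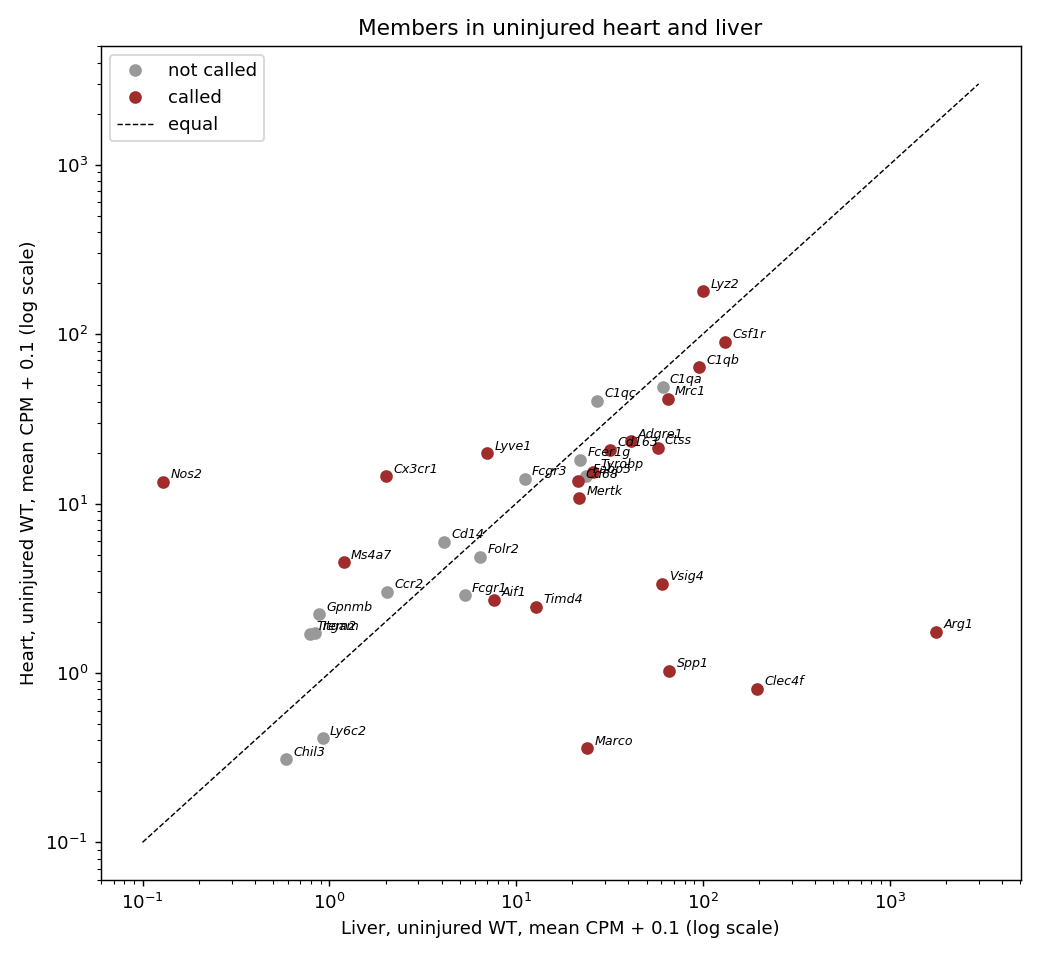
Mean CPM + 0.1 of the 35 genes in uninjured WT liver (x, 4 libraries) and heart (y, 3 libraries), both log axes, with the 21 called genes in red and equal levels as a dashed line. Arg1, Clec4f, Marco, Spp1, Vsig4 and Timd4 lie far below the line and Nos2, Cx3cr1, Ms4a7 and Lyve1 above it, while genes near the line change sides with the scaling.

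In the sorted stromal cells, gated without CD45, traces of these genes were read against Ptprc. Ptprc had a median of 0.307 CPM over the 44 libraries, with 14 libraries at 0 and a highest value of 6.74 CPM. Of the 35 genes, 27 had a median under 1 CPM, 7 from 1 to under 10 CPM and 1, Gpnmb, above that. The 12 general genes were not alike: Csf1r reached 1 CPM in 44 libraries and Cd68 in 43, while Lyz2 did so in 8, Ctss in 9 and Adgre1 in 4. Tyrobp was at 0 in 26 libraries, Ms4a7 in 33, Fcgr3 in 22, Fcer1g in 21, Fcgr1 in 19 and Aif1 in 16, and Itgam had a median of 0.188 CPM. Of the C1q chains, C1qa was at 0 in 28 libraries and C1qb and C1qc in 21 each.

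Gpnmb stood apart, with 26.6 CPM in the lowest, 161 CPM in the median and 327 CPM in the highest library, and none at 0. Spp1 ranged from 0 to 110 CPM with a median of 7.41 CPM. It was 27.8 to 110 CPM in WT and 32.8 to 60.2 CPM in mutant cells 1 day after cardiotoxin. Sedentary cells of the Cre mice, scaled apart, held 0.123 to 3.42 and 0 to 0.721 CPM of Spp1. Mertk stood lower after cardiotoxin, at 0.111 to 1.19 CPM against 1.75 to 6.71 CPM in these sedentary cells. These differences were not tested. Csf1r (median 6.76 CPM), Mertk (5.37), Cd68 (5.32) and Cd14 (4.28) came next by median, and Arg1 and Fabp5 had medians of 1.25 and 1.10 CPM. Ptprc reached 1 CPM in 8 of the 44 libraries. In TA at day 1 the same genes stood with 83.2 to 155 CPM of Ptprc, though the experiments were scaled apart.

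**Figure D5:**
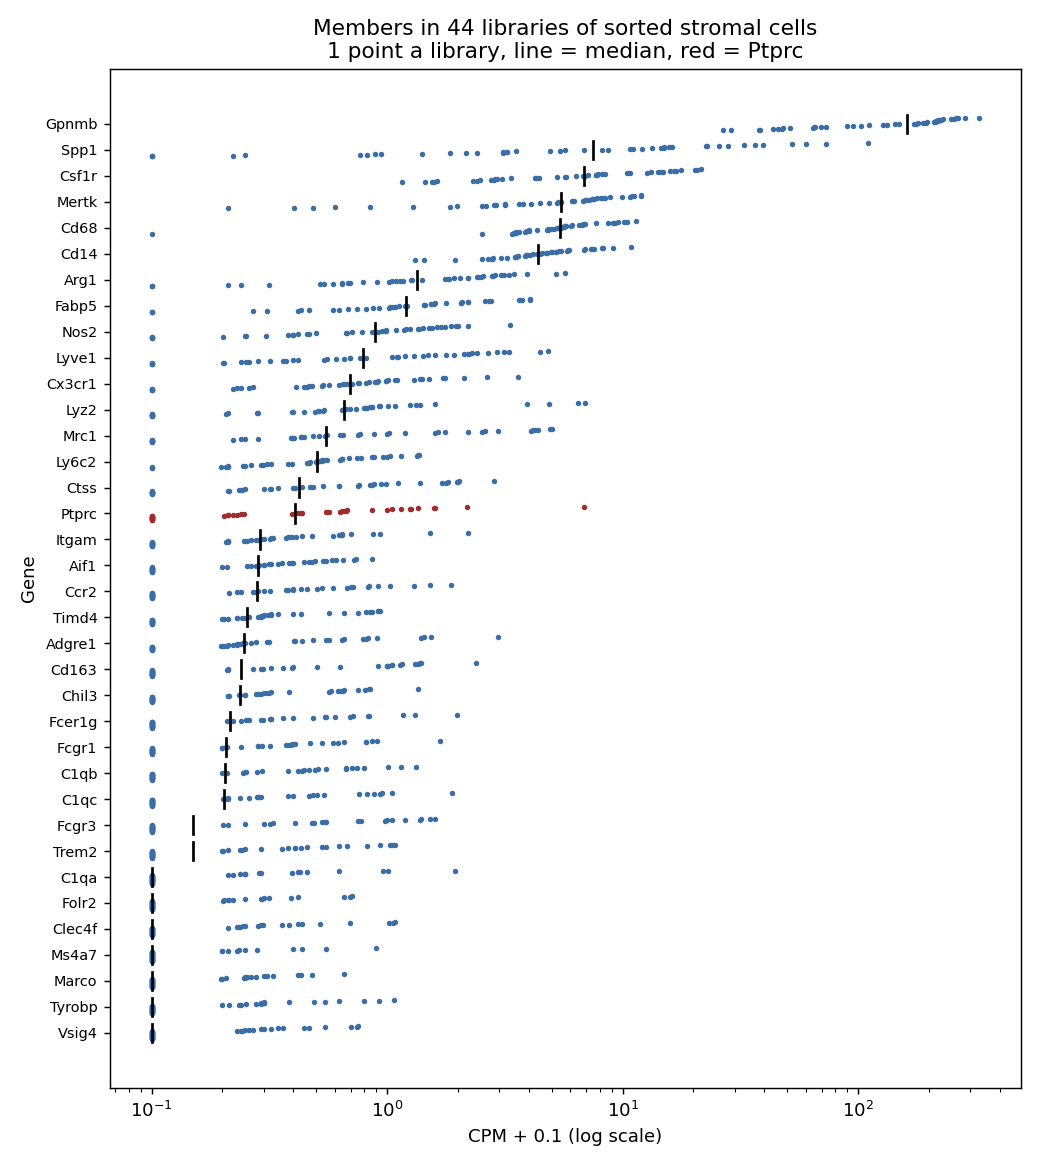
CPM + 0.1 (log axis) of the 35 genes (blue) and Ptprc (red) in each of the 44 libraries of sorted stromal cells, ordered by median (line). Gpnmb lies at 26.6 to 327 CPM in all libraries, 7 genes have medians from 1 to 10 CPM, and the 7 genes at the bottom have a median of 0.

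Few members were called in the comparisons of sorted cells. Between mutant and WT cells 1 day after cardiotoxin 1 of 8 tested members was called, where 1.79% of all genes were. Injured cells were not tested against sedentary cells. Lyz2 was 0.396, 1.503 and 0.107 CPM in WT and 6.85, 6.37 and 4.76 CPM in mutant cells, from 1 to 15 and 43 to 68 counts, with no overlap (3.13 ± 0.52 log2, edgeR adjusted p = 0.0062). DESeq2 gave no adjusted p for it. Ptprc was 0 to 0.902 CPM in WT and 0 to 0.579 CPM in these mutant libraries, Ly6g was at 0 in the mutant libraries and S100a8 reached 1.11 CPM in 1 of them. Some other low members had higher means in mutant cells: Fcer1g 0.266 CPM in WT and 1.16 in mutant, Tyrobp 0.0998 and 0.537, Ctss 0.0668 and 0.774. Others had lower means, as Mrc1 with 0.578 and 0.197 CPM. Of the 8 tested members 4 were higher and 4 lower in mutant cells. The part of other cells in the Lyz2 values was not tested. Il1b was also higher in the mutant cells, by 4.39 ± 0.76 log2 (edgeR adjusted p = 0.020), at 4.92 to 9.41 CPM against 0 to 1.00 CPM. Arg1 in this comparison was 2.77, 3.21 and 1.82 CPM in WT and 1.31, 1.16 and 0.111 CPM in mutant cells (-1.56 ± 0.55, edgeR adjusted p = 0.20).

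With Yoda1 for 2 h, 1 of 9 tested members was called, where 11.2% of all genes were. Spp1 was 39.5 and 36.4 CPM with Yoda1 and 3.00, 8.55 and 3.12 CPM with vehicle (2.94 ± 0.48 log2, edgeR adjusted p = 0.0042). The 2 Yoda1 libraries held 6.74 and 0 CPM of Ptprc, and the library at 0 was the smallest of the sorted cells, with 1806248 counts. The part of other cells in these Spp1 values was not tested. Csf1r was 7.66 and 1.06 CPM with Yoda1 and 17.6, 12.6 and 14.8 CPM with vehicle (-1.67 ± 0.65, edgeR adjusted p = 0.12). At 4 h, 1 of 11 was called, where 5.71% of all genes were. That was Cx3cr1, at 0.818, 0 and 0.381 CPM with Yoda1 and 2.55, 3.50 and 0.997 CPM with vehicle, from 0 to 6 and 7 to 27 counts (-2.39 ± 0.74, edgeR adjusted p = 0.049). This call was lost when vehicle replicate 1 or 2 or Yoda1 replicate 2 or 3 was left out, and DESeq2 gave no adjusted p for it. At 6 h edgeR called 0 of 11, with 3 at an unadjusted p under 0.05 and 0 by DESeq2, where 13.2% of all genes were called. Csf1r was 13.1, 14.5 and 16.7 CPM at 6 h and 20.2, 21.4 and 20.7 CPM with vehicle (-0.49 ± 0.18, edgeR adjusted p = 0.060). The 4 h and 6 h groups share their vehicle libraries. Spp1 at 4 h was 22.5, 4.80 and 22.7 CPM against 3.15, 5.57 and 15.7 CPM (edgeR adjusted p = 0.54).

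After exercise edgeR called 0 members in each of the comparisons. For AEX in mice with no genotype entry it tested 5, with 0 at an unadjusted p under 0.05 and 0 by DESeq2 (0.736% of all genes called). For EXT it tested 6, with 1 at an unadjusted p under 0.05 and Gpnmb called by DESeq2 (0.484% called). Gpnmb was 327, 256 and 248 CPM after EXT and 221, 176 and 188 CPM in sedentary cells, with no overlap (0.51 ± 0.13 log2, edgeR adjusted p = 0.093). In the Cre mice 10 members were tested: AEX in WT had 2 at an unadjusted p under 0.05 and 0 by DESeq2 (0.992% of all genes called), and AEX in mutant cells had 2 and Spp1 by DESeq2 (0.162% called). Spp1 was 0.789, 3.42 and 0.123 CPM in sedentary and 16.1, 6.73 and 14.9 CPM in exercised WT cells (3.08 ± 1.01 log2, edgeR adjusted p = 0.20). In mutant cells Spp1 was 0.664, 0.721 and 0 CPM and 25.5, 14.9 and 1.76 CPM (4.89 ± 1.15, edgeR adjusted p = 0.22). The groups did not overlap in either genotype. Between genotypes, sedentary cells had 0 called, 1 at an unadjusted p under 0.05 and 0 by DESeq2 (0.00675% of all genes called), and exercised cells 0, 0 and 0 (0% called).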

How the data were processed

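PolyA RNA of 90 libraries was read from 1 deposited table of gene counts. The submitters' processing notes name STAR 2.7.3a, featureCounts and the mm10 build. The authors' deposited values are raw read counts per gene, and no source used here states the annotation or strand setting. Of the columns, 78 matched a sample and 12 a group only, by name. The members and gene lists were chosen with earlier results of these data known.

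Counts were fitted within each experiment with edgeR 4.0.16 (R 4.3.3; TMM, filterByExpr minimum count 10, robust quasi-likelihood test), and p-values were adjusted over all genes tested (Benjamini-Hochberg, called under 0.05) in 25 comparisons. The script was tested on simulated data. Alternatives were DESeq2 1.42.0, no low-count filter, library totals only, the compared groups alone, a replicate block and leaving out each library. In each comparison full values go mainly to the called members of largest fold, up to 8 a direction, whose higher group averaged 10 CPM or more. Some of these have a log2 change only, as C1qb and Ms4a7 in TA, or no values, as Mertk between heart and liver. Lyz2 after cardiotoxin and Cx3cr1 at 4 h of Yoda1 were called below 10 CPM and have full values. Any other gene singled out was chosen after its values were seen. Lyz2, Ly6c2, Fabp5 and Chil3 have near-identical copies, so their counts are uncertain. No library repeated another: the lowest chi-square per gene between replicates was 2.75.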

Additional observations from a re-analysis of the deposited data

Results flagged for a closer look

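Among 97 pairs of a gene and a group of 4 libraries, 3 had a library parted from the others by a gap that took up most of the range. Chance gives about 1 in 20, so these 3 are no more than chance gives. The gap can be small in CPM. C1qc in mutant TA at day 1 was 52.4 CPM in replicate 4 and 56.8 to 57.3 CPM in the others. Csf1r in WT liver was 114 CPM in replicate 4 and 94.7 to 97.9 CPM in the others. Mrc1 in mutant liver was 58.1 CPM in replicate 3 and 51.2 to 51.6 CPM in the others.

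The Arg1 difference between genotypes in TA changed between days. The log2 difference, mutant minus WT, was lower at day 3 than at day 1 by an amount of -2.29 (edgeR genotype by day test over all days, adjusted p = 0.044, range over the edgeR alternatives 0.011 to 0.14, with DESeq2 at 0.0016).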

How the results depend on the processing

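Of 696 recomputed values of 55 named gene results, 661 kept their direction and side of the threshold, 35 kept the direction only, in 6 results, and 0 reversed. The 55 were chosen among called members. The heart and liver results of Csf1r, C1qb, Mrc1 and Cd163, which changed sign by library totals, are not among them. For counts of members called, the cause of each move below was not tested. The share of all genes called under each alternative is not given here, so these counts show sensitivity to the processing and not an excess among members. Without the low-count filter the counts were 1 for TA genotype at day 1, 4 for genotype by day, 8 for heart genotype at day 3, 1 and 5 for WT and mutant hearts over days, 1 for AEX and 1 for EXT. DESeq2 gave 2 for TA genotype at day 3, 8 for heart genotype at day 3, 1 for WT hearts over days and 1 for EXT. It gave 1 for AEX in mutant cells, and 0 for genotype after cardiotoxin and for Yoda1 at 4 h in sorted cells. With only the compared groups fitted, TA genotype at day 3 gave 0, WT hearts 1, mutant hearts 0 and Yoda1 at 4 h 0. Library totals, an alternative chosen after seeing the data, gave 3 for TA genotype at day 3.

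Leaving out 1 library gave 0 to 3 for TA genotype at day 3, 0 to 2 for genotype by day, 0 to 6 for heart genotype at day 3, 0 to 3 for mutant hearts over days, 0 to 2 for AEX, 0 to 1 for sedentary genotype, 1 to 3 for Yoda1 at 2 h and 0 to 1 at 4 h. The day comparisons in TA gave 21 to 23, 30 to 31, 24 to 25 and 28 to 30.

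The replicate numbers did not pair the samples: 3 of 46 same-numbered pairs in TA correlated above 0.1 (-0.16 to 0.18), and 2 of 4 in liver. With a replicate block the counts were 0 for genotype by day, 6 for heart genotype at day 3, 3 for mutant hearts over days and 0 for Yoda1 at 4 h, and the block moved no other count of members by over 1.5 times. The Cre exercise cohort had no block, since its columns carry no shared number. Sorted-cell libraries left only 5 to 11 members testable, so changes of most members were not detectable at this depth.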
